A study of Mus musculus with 22 samples.

Results

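The subject of this report is the set of day 5 gastruloids of the 2 experiments in which single gastruloids of that age carried a barcode, and the way their cells differ between the 3 classes into which the authors sorted them. Gastruloids are aggregates of mouse embryonic stem cells that form the trunk tissues of the early embryo in culture. The members were the cells assigned to day 5 and to the barcode of 1 gastruloid in the first and the third MULTI-seq experiments, called MULTI-seq 1 and MULTI-seq 3 here. They numbered 20709 of the 77683 cells of the series and came from 40 of its 136 barcoded gastruloids. MULTI-seq labels the cells of each gastruloid with a DNA barcode before pooling, so that cells captured together can be traced to their gastruloid of origin.

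All 3 classes consisted of unmodified E14Tg2A cells grown in one way, so no allele or agent separated them. Per the labels, 300 cells were seeded per well and left to aggregate for 48 h. They then received 3 µM of the GSK3 inhibitor CHIR99021, which switches on Wnt signalling, for a limited time. MULTI-seq 1 held 8 neural, 9 intermediate and 7 mesodermal gastruloids, and MULTI-seq 3 held 4, 4 and 8. The classes held 6101, 7570 and 7038 cells in the same order. A class thus says only what a gastruloid contains, and the labels do not say whether gastruloids came from separate cultures or starting batches. P-values therefore measure the spread between these gastruloids.

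The trunk of the embryo grows from neuromesodermal progenitors (NMPs), cells of the tail bud that give rise both to spinal cord and to presomitic mesoderm (PSM). Wnt and FGF signals keep these progenitors in place, while retinoic acid, made by the somites, turns off Fgf8 and promotes spinal cord differentiation. Presomitic mesoderm is cut into somites by a clock built on Notch and its targets of the Hes family, and a somite then divides into sclerotome, which forms cartilage and marks itself with Pax1 and Sox9, and dermomyotome, which expresses Pax3. Hox genes give each level of the axis its identity, with higher paralogue numbers expressed further back.

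The 6 lanes used here held 64703013 to 274221744 UMIs (unique molecular identifiers, each standing for 1 captured RNA molecule), and the median cell of a lane held 8313 to 15750 UMIs in MULTI-seq 1 and 25371 to 29796 in MULTI-seq 3. Mitochondrial RNA made up 5.42% to 5.48% of a median cell in the former and 1.92% to 1.95% in the latter. Between 0 and 7 cell barcodes were shared by any pair of lanes. Neural gastruloids had 938 more UMIs per median cell than mesodermal ones (permutation test within experiments, adjusted p = 0.0589 over 9 comparisons of cells, UMIs and mitochondrial RNA per gastruloid), with opposite signs in the experiments, -83.5 in MULTI-seq 1 and 2368 in MULTI-seq 3 (adjusted p = 0.027). The share of mitochondrial RNA, a sign of RNA quality, was 0.149 percentage points higher in neural than in intermediate gastruloids and differed by -0.108 points between intermediate and mesodermal ones (permutation test, adjusted p = 0.0499 for both). The former difference was 0.242 points in MULTI-seq 1 and -0.0484 in MULTI-seq 3. Neural minus mesodermal gastruloids likewise turned sign, with 0.118 points in MULTI-seq 1 and -0.134 in MULTI-seq 3 (adjusted p = 0.39 and 0.027 by the same test). The part of mitochondrial RNA in the results was not tested. Within single cluster names, neural cells of MULTI-seq 3 held fewer UMIs than mesodermal ones. Mean values were 24344.5 against 25088.6 in Mature Somites and 31460.1 against 32817.1 in Early Spinal Cord. They were 27580.2 against 28927.4 in NMPs and 25457.5 against 27387.6 in Late Posterior PSM. MULTI-seq 1 gave 10128.5 against 10303.8, 12108.4 against 11848, 10951 against 12137.8 and 10730.25 against 11246.4 in that order, without a test. With log2 of the UMIs per cell within the name as a covariate, the counts of called genes given below became 1318 in Mature Somites and 174 in Early Spinal Cord. Cells called doublets by their barcode numbered 1690 in the MULTI-seq 3 lanes, where days 4.5 and 5 were pooled, and 0 in MULTI-seq 1, and they were not used. Whether doublets of MULTI-seq 1 were removed before deposit or never called could not be told from the labels, so its sums may hold some. Cells of the same gastruloid share a barcode, so doublets among them are not called this way. The sums of both experiments may hold those.

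The classes were chosen by the authors on the measured cell composition of each gastruloid, so their makeup is given as a description, with no test. Spinal cord, neurectoderm and neuron names together made up 62.6% to 93.1% of the cells of a neural gastruloid (median 75.1%), 28.4% to 44.1% of an intermediate one (median 34.6%) and 3.86% to 33.0% of a mesodermal one (median 8.87%). The lowest neural gastruloid and the highest intermediate one were thus separated, whereas the highest mesodermal gastruloid, at 33.0%, lay above the lowest intermediate one, at 28.4%. Late Spinal Cord made up 52.1% ± 12.4 of the cells in neural gastruloids (SD, n = 12), 7.64% ± 6.84 in intermediate ones (n = 13) and 0.469% ± 0.451 in mesodermal ones (n = 15). Early Spinal Cord was most frequent in the intermediate class, with 27.5% ± 5.58 against 20.1% ± 6.65 in the neural and 11.7% ± 8.24 in the mesodermal class. NMPs were likewise most frequent in the intermediate class, with 13.8% ± 4.32 in intermediate, 9.08% ± 2.72 in mesodermal and 5.45% ± 3.68 in neural gastruloids.

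Mesodermal names ran the other way. Mature Somites made up 36.8% ± 6.54 of a mesodermal gastruloid, 20.2% ± 7.54 of an intermediate one and 9.77% ± 4.61 of a neural one. Late Posterior PSM stood at 14.1% ± 5.65 in intermediate, 14.5% ± 6.40 in mesodermal and 4.11% ± 2.55 in neural gastruloids. Tissues outside the trunk axis followed the mesodermal end: Mature Endoderm averaged 5.54%, 1.83% and 0.234% in the mesodermal, intermediate and neural classes, and Head Mesoderm 3.44%, 0.883% and 0.111%. Cardiopharyngeal Mesoderm, the source of heart and throat muscle, was unevenly spread. Its median was 0.0% in every class, yet it reached 15.7% in 1 mesodermal and 13.8% in 1 intermediate gastruloid of MULTI-seq 1 and 10.1% in 1 mesodermal gastruloid of MULTI-seq 3.

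**Figure D1:**
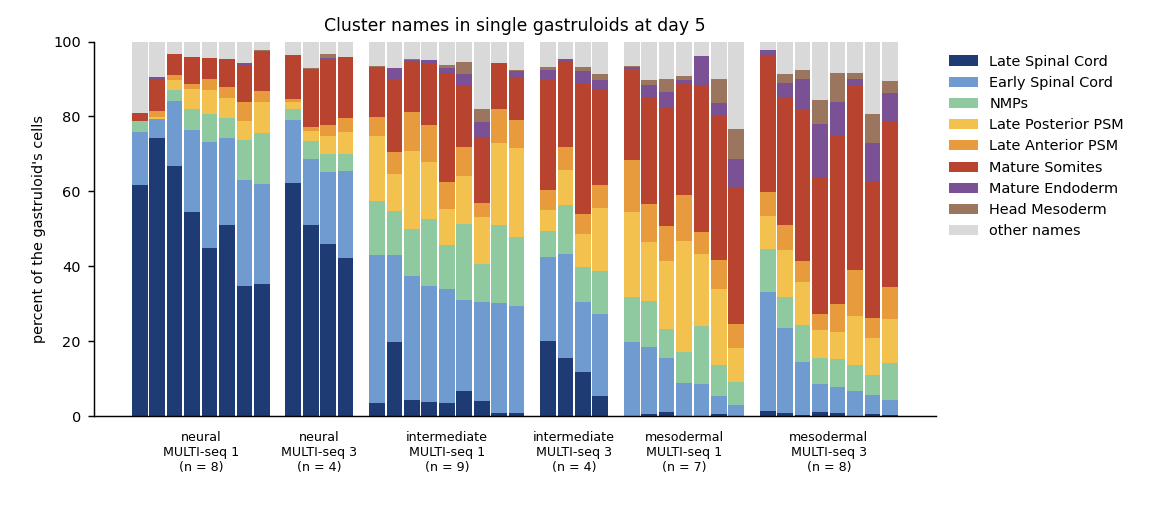
Each bar is 1 gastruloid at day 5 and its colours give the percent of its cells under each cluster name, by class and experiment. Within a class and experiment, bars are ordered by the share of spinal cord, neurectoderm and neuron names together. Late Spinal Cord (dark blue) fills 52.1% of a neural gastruloid on average and 0.469% of a mesodermal one, and Mature Somites (red) 9.77% and 36.8%.

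The question taken up here is whether cells under one and the same name also differ with the class of the gastruloid they come from. UMIs were summed per gastruloid within a cluster name where at least 20 cells were present, and the sums were compared between classes with edgeR's quasi-likelihood test with experiment as a block. The names were given by the authors from the same RNA, so every difference below is among cells that were given one name. Called means a Benjamini-Hochberg adjusted p under 0.05 over all genes tested in that cluster name. Levels are CPM, the UMI counts of the summed cells scaled to 1 common total, given as lowest, median and highest for more than 5 gastruloids and singly otherwise. Differences are log2 fold changes ± SE between the classes. In such sums, fewer expressing cells and less RNA per expressing cell cannot be told apart. The genes named below were picked among called ones, so classes without overlap follow in part from that choice and are no further evidence. The share of all genes whose classes did not overlap was not counted.

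The names differed widely in how many genes were called between the classes. In Mature Somites, 1449 of 9254 genes differed between neural (10 gastruloids) and mesodermal (15) sources, 757 higher and 692 lower. That is 15.7% of the genes tested, and 612 genes were called without the term for experiment. In Early Spinal Cord it was 198 of 9202 genes, or 2.15% (11 against 11 gastruloids). In Late Posterior PSM it was 20 of 8486, or 0.236% (7 against 15), and 85 by DESeq2. In NMPs it was 0 of 8142 by edgeR and 0 by DESeq2 (8 against 13), with 584 genes at an unadjusted p under 0.05 and 48 called when p was adjusted over all cluster names together, and between intermediate and mesodermal NMPs 1 gene, or 0.0123%, was higher. The median sum held 46.5 cells of a neural and 152 of a mesodermal gastruloid in Mature Somites, 25 and 65 in Late Posterior PSM, and 34.5 and 49 in NMPs. The fits also differed in power, so these counts do not measure how much the names differ. In simulated counts, 86.6% of changes of 1.5 fold were recovered in Mature Somites. The share was 74.6% in Early Spinal Cord and 52.2% in Late Posterior PSM, and NMPs were not simulated. Late Spinal Cord could be compared only between neural (12) and intermediate (8) gastruloids, where 122 of 9648 genes differed, and Late Anterior PSM only between intermediate (11) and mesodermal (13) ones, with 108 of 8455.

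The names with the most called genes were checked against markers in the sums. In Mature Somites the 8 somite markers summed to 1456 to 2118 CPM in neural and 1343 to 1807 CPM in mesodermal gastruloids, and the 8 spinal cord markers to 194 to 318 and 186 to 255 CPM. In Early Spinal Cord the spinal cord markers summed to 754 to 921 CPM in neural and 684 to 870 CPM in mesodermal gastruloids. The ranges of the classes overlapped in each of these cases. Single markers within the lists still moved: 3 of the 8 somite markers were called higher and 4 lower in neural Mature Somites, with 1 of 2 tested neuron markers and 1 of 4 presomitic mesoderm markers higher. The shares over all genes were 8.18% higher and 7.48% lower. Markers of neighbouring cells moved with class in Early Spinal Cord. In MULTI-seq 1 the 6 presomitic mesoderm markers summed to 87.9 to 179 CPM in neural and 210 to 276 CPM in mesodermal gastruloids, the 6 NMP markers to 711 to 842 and 843 to 1042 CPM, and the 5 notochord markers to 10.98 to 29.1 and 37.1 to 45.4 CPM, all without overlap. In MULTI-seq 3 the same sums were 86.2 to 104 against 90.8 to 170 CPM, 584 to 684 against 647 to 759 CPM and 11.3 to 17.5 against 14.3 to 35.9 CPM, with overlap. Other lists were separate in MULTI-seq 3, where the 6 neuron markers summed to 36.4 to 47.2 CPM in neural and 23.9 to 34.8 CPM in mesodermal gastruloids and the 7 endoderm markers to 12.7 to 14.7 and 15.1 to 34.7 CPM. Both overlapped in MULTI-seq 1. The notochord and NMP lists share T, and the notochord and endoderm lists share Foxa2. In Early Spinal Cord 1 of the 5 notochord and 2 of the 7 endoderm markers entered the test. In Mature Somites of MULTI-seq 1 the presomitic mesoderm markers summed to 127 to 213 CPM in neural and 71.4 to 123 CPM in mesodermal gastruloids, without overlap. The part of these cells in the results was not tested.

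Somite cells of neural gastruloids had more RNA for sugar uptake and glycolysis. Of 32 listed glycolysis and hypoxia target genes, 28 entered the test in Mature Somites, 25 were higher in neural than in mesodermal gastruloids and 0 were lower, with a median log2 fold change of 0.56 against a median of 0.00 over all genes tested. Among all genes, 8.18% were higher. The list ran through the pathway. Slc2a1, the glucose transporter of most cells, had 70.3, 112 and 225 CPM (lowest, median, highest) in the neural gastruloids of MULTI-seq 1 and 40.9, 60.3 and 68.8 in the mesodermal ones. In MULTI-seq 3 the 4 neural gastruloids had 54.6, 61.0, 63.1 and 63.6 CPM and the mesodermal ones 22.0, 31.8 and 34.2. The classes did not overlap in either experiment, and the log2 fold change was 1.00 ± 0.10 (SE, edgeR adjusted p = 1.63e-10). Slc2a3, a transporter with high affinity for glucose, had 10.0, 41.2 and 74.2 CPM against 6.24, 9.49 and 11.9 in MULTI-seq 1. MULTI-seq 3 gave 6.63, 13.9, 14.7 and 17.8 CPM against 2.50, 4.49 and 6.53, where the classes were separate (log2 fold change 1.89 ± 0.20, edgeR adjusted p = 3.38e-10).

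Enzymes of the pathway followed. The isomerase Tpi1 was higher by 0.56 ± 0.06 on the log2 scale (edgeR adjusted p = 6.95e-10), the kinase Pgk1 by 0.63 ± 0.08 and the aldolase Aldoa by 0.69 ± 0.08, and none of these 3 had overlapping classes in either experiment. Gapdh and Ldha, which make pyruvate precursors and lactate, were higher by 0.30 ± 0.04 and 0.37 ± 0.06. Pfkp, the platelet form of phosphofructokinase, had the largest fold of the list at 2.23 ± 0.26, from 0, 2.27 and 4.57 CPM in mesodermal to 4.02, 18.96 and 40.5 CPM in neural gastruloids of MULTI-seq 1. The list also holds hypoxia targets outside glycolysis. The mitophagy receptor Bnip3 had 82.8, 102 and 151 CPM against 46.5, 54.8 and 59.4 in MULTI-seq 1, and 70.3, 86.1, 91.2 and 106 CPM against 30.0, 53.2 and 58.6 in MULTI-seq 3, with no overlap. Ddit4, a stress-induced inhibitor of mTOR, was higher by 1.29 ± 0.13 (edgeR adjusted p = 1.63e-10). Ndufa4l2, a mitochondrial protein also known as a hypoxia target, stood outside the list and was higher by 2.71 ± 0.28.

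Hypoxia-inducible factors, which drive many genes of this list, recognise the core letters ACGTG or GCGTG, and the promoters are shown because the genes moved together. The 250 bases before each start of a gene were read from RefSeq on GRCm38.p6 and searched on both strands for these 2 motifs. A gene with several starts counted as matched when any of its windows held a match. Of the 25 higher genes 23 had a window, and 20 of these, or 87.0%, held a match. The share was 65.4% of the 7401 tested genes with a window and 38.6% of all 32851 windows. The list was drawn up as glycolysis and hypoxia targets, so a share above that of all genes may come with the list itself. Members that were not called were not set beside the called ones. A match is a description of the letters and says nothing of binding or of a cause. Windows of a transporter, a stress gene and an enzyme are shown, 5′ to 3′ on the strand of the gene, with each match to the motif, on either strand, in capitals. They lie at chr4:119108495-119108744 on the plus strand, chr10:59951771-59952020 on the minus strand and chr7:126799179-126799428 on the minus strand. Each window shown held the most matches among the windows of its gene, of which Aldoa had 3.
Slc2a1: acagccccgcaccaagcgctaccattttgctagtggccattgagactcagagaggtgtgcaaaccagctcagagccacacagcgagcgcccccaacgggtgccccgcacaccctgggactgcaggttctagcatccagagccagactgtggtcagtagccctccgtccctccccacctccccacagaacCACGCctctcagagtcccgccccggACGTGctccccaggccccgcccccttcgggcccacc
Ddit4: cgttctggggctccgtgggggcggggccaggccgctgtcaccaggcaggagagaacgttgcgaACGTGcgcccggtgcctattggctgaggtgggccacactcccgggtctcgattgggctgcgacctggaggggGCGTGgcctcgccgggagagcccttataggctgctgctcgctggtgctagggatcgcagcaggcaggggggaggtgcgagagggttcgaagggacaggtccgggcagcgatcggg
Aldoa: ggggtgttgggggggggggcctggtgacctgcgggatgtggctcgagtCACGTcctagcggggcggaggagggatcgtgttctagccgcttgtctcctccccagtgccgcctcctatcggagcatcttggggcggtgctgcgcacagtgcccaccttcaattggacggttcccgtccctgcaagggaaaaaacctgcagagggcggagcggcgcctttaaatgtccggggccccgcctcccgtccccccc

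**Figure D2:**
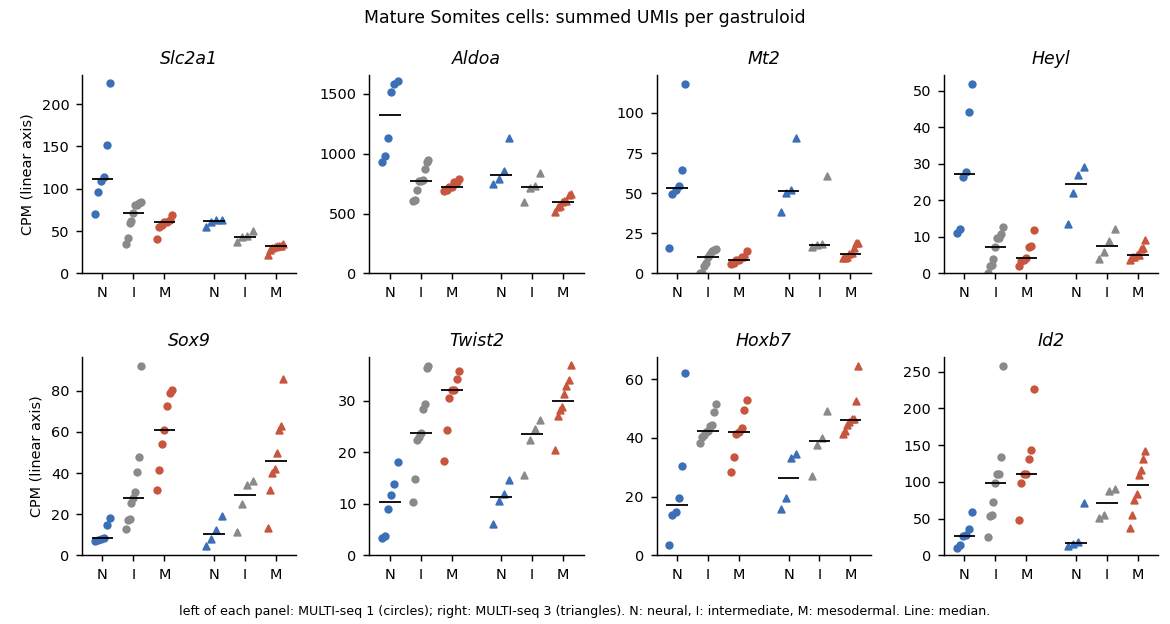
Each point is the CPM of 1 gene in the summed Mature Somites cells of 1 gastruloid, on a linear axis, for neural (N), intermediate (I) and mesodermal (M) gastruloids of MULTI-seq 1 (circles) and MULTI-seq 3 (triangles); lines are medians. Slc2a1, Mt2 and Notch1's target Heyl stand higher in the neural class and Sox9 and Twist2 lower, with Slc2a1 at medians of 112 and 60.3 CPM in MULTI-seq 1.

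For Slc2a1 in Mature Somites of MULTI-seq 1, the median of intermediate gastruloids lay between those of the other classes. Their 34.5, 71.6 and 83.8 CPM overlapped both other classes. In MULTI-seq 3 intermediate gastruloids lay between without overlap, at 36.6, 43.0, 44.0 and 50.3 CPM. Against them, neural somite cells had 539 called genes, or 5.82%, with 19 of the 28 glycolysis and hypoxia genes higher and 0 lower (median log2 fold change 0.35), where 3.13% of all genes were higher and 2.69% lower. Between intermediate and mesodermal gastruloids 2 of the 28 were higher, Slc16a3, which exports lactate, and Ddit4, by 0.47 ± 0.10 and 0.60 ± 0.12 (edgeR adjusted p = 0.011 and 0.00816), where 0.195% of all genes were higher and 0.054% lower. Outside this list, neural somite cells had more Notch1 (0.62 ± 0.11), Heyl (1.75 ± 0.22) and Crabp1 (1.27 ± 0.21) and less Sox9 (-1.26 ± 0.32) than intermediate ones, and intermediate ones had less Sox9 (-0.85 ± 0.18) and more Pax3 (0.43 ± 0.10) than mesodermal ones; the roles of these genes are given below. The 23 genes called between intermediate and mesodermal Mature Somites became 12 to 43 with a lane left out. There were 0 in MULTI-seq 1 alone, 6 in MULTI-seq 3 alone, 0 without the term for experiment and fewer by DESeq2. The comparisons share gastruloids, so their values are given side by side only.

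The list was also read in the other names. In Late Posterior PSM, 19 of 26 tested members were higher in intermediate than in mesodermal gastruloids, with 0 lower and a median of 0.37, where 1.2% of all genes were higher. Gpi1, the isomerase that follows hexokinase, was higher by 0.44 ± 0.07 (edgeR adjusted p = 7.52e-05) and Slc2a3 by 1.14 ± 0.18. In Late Anterior PSM, 16 of 27 were higher and 0 lower (median 0.40), where 1.01% of all genes were higher. Gpi1 had 236, 280 and 314 CPM in intermediate and 186, 198 and 221 CPM in mesodermal gastruloids of MULTI-seq 1, which did not overlap. In MULTI-seq 3 it had 177, 217, 239 and 283 CPM against 132, 143 and 183, where the lowest intermediate value lay under the highest mesodermal one (log2 fold change 0.55 ± 0.07, edgeR adjusted p = 2.79e-07). In Early Spinal Cord, 5 of 27 members were higher in intermediate than in mesodermal gastruloids, Tpi1 (0.32 ± 0.07) and Higd1a (0.45 ± 0.08) among them, where 0.141% of all genes were higher, but 0 were higher and 1 lower in neural against mesodermal ones, with a median of 0.03, beside 1.03% and 1.12% of all genes. Late Spinal Cord had 2 of 27 lower and 0 higher in neural than in intermediate gastruloids, beside 0.819% and 0.446% of all genes. NMPs had 0 called in any comparison. In neural against mesodermal gastruloids, Late Posterior PSM had 0 of 26 members called and a median of 0.15. Whether the folds differ between names was not tested.

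**Figure D3:**
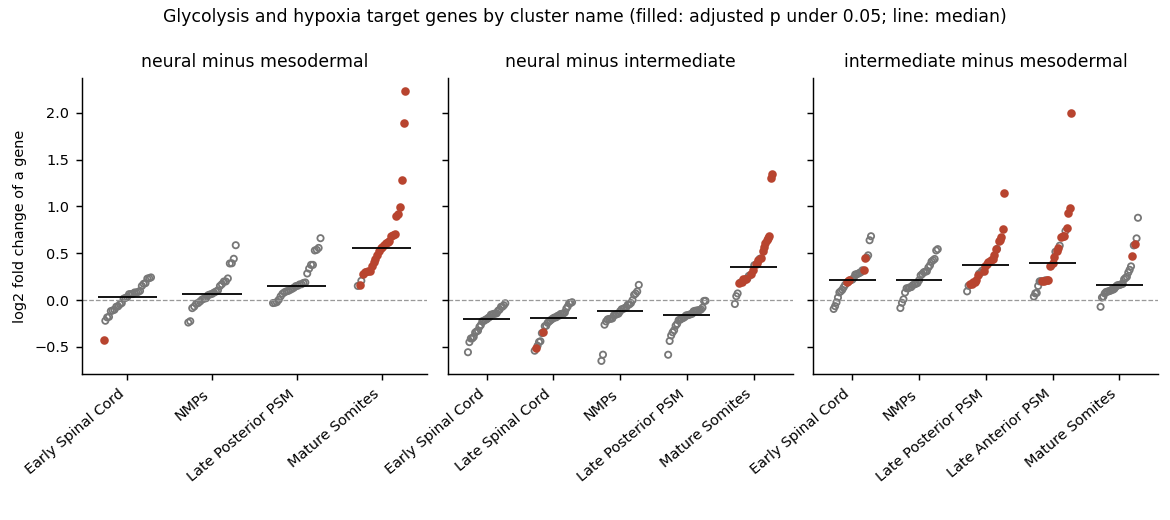
Each point is 1 gene of the glycolysis and hypoxia list, at its log2 fold change between 2 classes within a cluster name; filled points have an adjusted p under 0.05 and lines are list medians. Mature Somites stand at a median of 0.56 in neural against mesodermal gastruloids with 25 of 28 filled above 0, while the median in Early Spinal Cord is 0.03.

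Sterol synthesis went the other way in Mature Somites. Of 24 listed genes of sterol and fatty acid synthesis 23 were tested, and 18 were lower in neural than in mesodermal gastruloids, 0 higher, with a median log2 fold change of -0.30, where 7.48% of all genes were lower. The sizes were small. Scd1, which makes monounsaturated fatty acids, fell by 0.58 ± 0.11, the mevalonate kinase Mvk by 0.43 ± 0.09, the isomerase Idi1 by 0.43 ± 0.09 and the synthase Hmgcs1 by 0.22 ± 0.08 on the log2 scale, the last with an edgeR adjusted p of 0.0352 and no call in 10 of 25 fits without 1 gastruloid. Mvk had 17.2, 24.3, 26.8 and 27.8 CPM in the neural and 30.5, 33.4 and 37.0 in the mesodermal gastruloids of MULTI-seq 3, without overlap, but overlapped in MULTI-seq 1. The sterol motif TCACNCCAC, searched on both strands, was found for 1 of the 11 lower genes with a window in RefSeq, or 9.09%, and in 1.11% of the tested genes with a window.

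Posterior identity differed in the same cells. Of the 12 tested Hox genes of paralogue groups 5 to 9, 11 were lower in somite cells of neural gastruloids and 0 higher (median -0.86). Among all genes, 7.48% were lower and 8.18% higher. Hoxb7, a trunk Hox gene, had 3.68, 17.1 and 62.3 CPM in neural and 28.3, 42.2 and 52.97 CPM in mesodermal gastruloids of MULTI-seq 1. MULTI-seq 3 gave 15.8, 19.4, 33.2 and 34.7 CPM against 41.5, 46.0 and 64.6. The classes were separate in MULTI-seq 3, while in MULTI-seq 1 the highest value was neural (log2 fold change -0.87 ± 0.14, edgeR adjusted p = 3.5e-06). Of 11 tested genes of groups 1 to 4, expressed further forward, 3 were higher and 0 lower, among them Hoxa3 (0.48 ± 0.13) and Hoxb1 (0.61 ± 0.17). Both lost their call without 1 neural gastruloid of MULTI-seq 3 (0.39 and 0.34, edgeR adjusted p = 0.0778 and 0.266).

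Somite genes moved in both directions, and the values below do not show a shift between sclerotome and dermomyotome. Sox9, Pax1 and Twist2 were lower in neural gastruloids. Sox9, which drives cartilage formation, had 6.90, 8.20 and 18.2 CPM in neural and 32.0, 61.0 and 80.4 CPM in mesodermal gastruloids of MULTI-seq 1. In MULTI-seq 3 it had 4.64, 8.09, 12.5 and 18.9 CPM against 13.5, 45.7 and 85.8. The classes were separate in MULTI-seq 1 and overlapped through 1 low mesodermal gastruloid in MULTI-seq 3 (log2 fold change -2.11 ± 0.28, edgeR adjusted p = 6.3e-08). Pax1, a sclerotome factor (-1.79 ± 0.45), Twist2, a mesenchymal repressor of differentiation (-1.48 ± 0.15), and Meox2 and Tbx18, which mark somite domains (-0.85 ± 0.13 and -0.99 ± 0.21), were lower. Tcf15, needed for epithelial somites, was higher by 0.51 ± 0.08 and Uncx, expressed in the rear of each somite, by 0.38 ± 0.11. Pax3 was higher by 0.37 ± 0.12 (edgeR adjusted p = 0.0293). In all, 7 of the 18 tested somite genes were higher and 6 lower, with a median of -0.03, so the list had no single direction. Of all genes tested, 8.18% were higher and 7.48% lower. In the authors' second naming, a mapping onto embryo cells, the share of Mature Somites cells mapped to Sclerotome differed by 5.59 percentage points with neural higher, within the spread (permutation test, adjusted p = 0.158 over 4 shares), and the share mapped to Dermomyotome by -5.75 points with neural lower (adjusted p = 0.0973). With the Sclerotome share, which was read from the same RNA, as a covariate 1016 genes were called. In 25 fits that left out 1 gastruloid each, Pax3 lost its call in 3 and Uncx in 1.

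Most retinoic acid handling genes and 7 of 12 Notch genes were higher in neural gastruloids. Of 6 tested genes of retinoic acid synthesis and handling, 5 were higher and 1 lower (median 0.60), beside 8.18% of all genes higher and 7.48% lower. Crabp1, which holds retinoic acid in the cytoplasm, had 62.3, 234 and 640 CPM against 39.7, 72.1 and 114 in MULTI-seq 1 and 114, 192, 279 and 437 CPM against 59.0, 96.1 and 121 in MULTI-seq 3. The ranges overlapped at their edges in both experiments (log2 fold change 1.49 ± 0.19, edgeR adjusted p = 3.29e-08). Stra6, the retinol uptake receptor, was higher by 0.86 ± 0.16 and Aldh1a2, the main synthesis enzyme of the embryo, by 0.34 ± 0.12, whereas Crabp2, which carries retinoic acid to its receptor, was lower (-0.60 ± 0.21). Leaving out single gastruloids, Aldh1a2 lost its call in 13 of 25 fits and Crabp2 in 6. Of 12 tested Notch pathway and clock genes, 7 were higher and 0 lower (median 0.41). The receptor Notch1 had 132, 175 and 202 CPM against 55.0, 73.6 and 98.6 in MULTI-seq 1, and 125, 154, 168 and 181 CPM against 79.9, 90.4 and 99.9 in MULTI-seq 3. No value of 1 class reached the other in either experiment (log2 fold change 0.90 ± 0.10, edgeR adjusted p = 4.65e-10). Its targets Nrarp, a feedback inhibitor, and Heyl, a transcriptional repressor, were higher by 1.07 ± 0.16 and 2.10 ± 0.21, and Efnb2, an ephrin of the somite boundary, by 0.91 ± 0.10.

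Among the genes outside the lists with the lowest p-values were the metallothioneins Mt1 and Mt2, which bind zinc and copper. Mt2 had 16.1, 53.1 and 118 CPM in neural and 5.94, 8.58 and 13.7 CPM in mesodermal gastruloids of MULTI-seq 1. MULTI-seq 3 gave 38.1, 50.4, 52.2 and 84.2 CPM against 9.37, 12.2 and 18.99. The classes were separate in both (log2 fold change 2.22 ± 0.22, edgeR adjusted p = 1.15e-10). Ptgds, a prostaglandin synthase, was higher by 2.62 ± 0.25, and Nbl1, a secreted BMP antagonist, by 2.07 ± 0.21. Id2, a target of BMP signalling, was lower (-1.75 ± 0.29), although 1 neural gastruloid of MULTI-seq 3 had 70.9 CPM beside 12.5, 15.9 and 17.9 in the other 3. Nme1 (-0.38 ± 0.04), Eif5a (-0.27 ± 0.03) and Fabp5 (-0.27 ± 0.04), genes of nucleotide supply, translation and fatty acid binding, had small folds with no overlap of the classes. Among cell cycle inhibitors and p53 targets, 8 of 12 were higher and 0 lower, with Cdkn1a, the p21 inhibitor, higher by 0.89 ± 0.14, and 5 of 25 S phase genes were lower and 0 higher, beside 8.18% of all genes higher and 7.48% lower. Of 17 tested matrix genes 11 were higher and 3 lower, with the basement membrane collagen Col4a1 higher by 0.71 ± 0.08.

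The experiments, which share no gastruloid, were also fitted alone. Of the 358 genes called in MULTI-seq 1 between neural and mesodermal Mature Somites, 342 had the same sign in MULTI-seq 3 and 201 were called there too, while 64.7% of all genes tested in both had the same sign. MULTI-seq 3 alone called 1069, and 771 of the 887 of them that were testable in MULTI-seq 1 had the same sign there. In Early Spinal Cord, 69 of the 74 genes called in MULTI-seq 1 had the same sign in MULTI-seq 3 and 10 were called in both, where 54.7% of all genes shared a sign. In the other direction it was 22 of 24. In Late Posterior PSM 32 of 50 shared a sign and 0 were called in both, beside 52.7% of all genes.

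**Figure D4:**
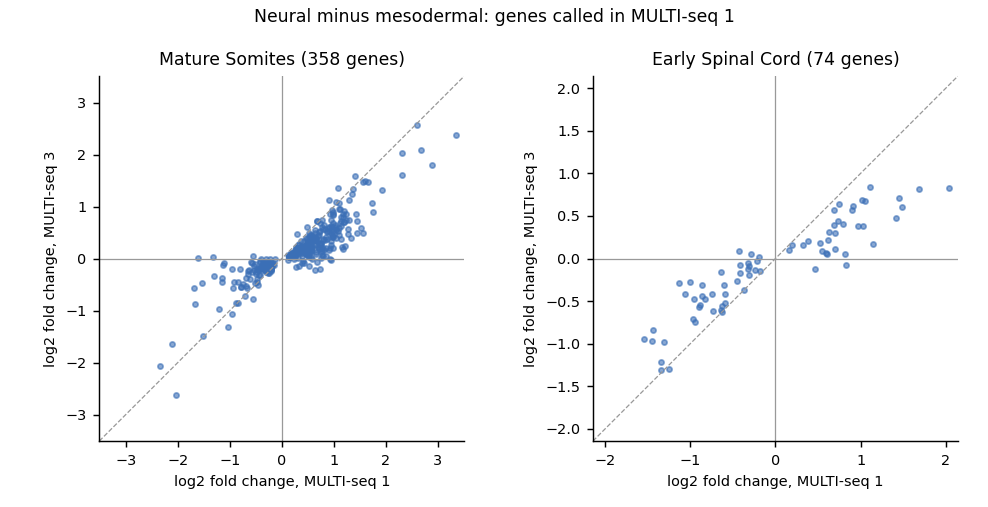
Each point is 1 gene called between neural and mesodermal gastruloids in MULTI-seq 1, at its log2 fold change there (horizontal) and in MULTI-seq 3 (vertical); the dashed line marks equal folds. In Mature Somites 342 of 358 points share a sign and in Early Spinal Cord 69 of 74.

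In Early Spinal Cord, genes of the tail bud were lower in neural gastruloids. Of 11 tested NMP and tail bud genes, 7 were lower in neural than in mesodermal gastruloids and 1, Sox2, was higher, with a median log2 fold change of -0.26, where 1.12% of all genes were lower and 1.03% higher. Fgf17, an FGF ligand of the tail bud, had 29.5, 42.4 and 75.5 CPM in the neural gastruloids of MULTI-seq 1 and 99.5, 112, 121 and 190 CPM in the 4 mesodermal ones. In MULTI-seq 3 the 4 neural gastruloids had 24.4, 28.8, 32.3 and 45.6 CPM and the mesodermal ones 47.4, 91.1 and 109. The classes were separate in both experiments (log2 fold change -1.32 ± 0.14, edgeR adjusted p = 1.32e-08). Fgf8, the ligand that holds the progenitor state (-0.57 ± 0.13), T, the mesoderm factor brachyury (-0.63 ± 0.15), Evx1 (-0.84 ± 0.19) and Cdx2, a caudal regulator of Hox genes (-0.26 ± 0.05), were also lower. Of 11 tested FGF feedback genes 3 were lower and 0 higher, Spry4 (-0.87 ± 0.20), Etv4 (-0.47 ± 0.10) and Il17rd (-0.30 ± 0.08).

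Wnt targets were lower where they differed. Of 12 tested, 4 were lower and 0 higher (median -0.40), beside 1.12% of all genes lower and 1.03% higher. Sp5, a direct Wnt target of the tail bud, had 10.0, 20.6 and 36.0 CPM in neural against 46.8, 51.4, 55.1 and 72.5 in mesodermal gastruloids of MULTI-seq 1. In MULTI-seq 3 it had 10.2, 13.6, 14.8 and 17.2 CPM against 26.8, 37.5 and 55.9. All neural values were under all mesodermal values of their experiment (log2 fold change -1.30 ± 0.16, edgeR adjusted p = 1.01e-07). The feedback inhibitors Axin2 (-0.67 ± 0.12) and Nkd1 (-0.53 ± 0.13) were lower, as were Ptch1, the Hedgehog receptor and target (-1.27 ± 0.19), and Id1, a BMP target (-0.49 ± 0.08). Tcf7l1, a repressor of Wnt targets, was higher by 0.83 ± 0.15.

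Among genes that answer to retinoic acid and genes of spinal cord identity, those that passed the test were higher and the larger number did not pass. Meis2, a Hox cofactor induced by retinoic acid, had 40.5, 54.6 and 60.9 CPM in neural and 10.6, 16.7, 18.0 and 22.6 CPM in mesodermal gastruloids of MULTI-seq 1. The values of MULTI-seq 3 were 59.3, 60.8, 61.6 and 71.9 CPM against 17.6, 38.8 and 41.3. Again no values overlapped (log2 fold change 1.06 ± 0.12, edgeR adjusted p = 7.66e-08). Meis1 and the receptor Rara were higher by 1.15 ± 0.24 and 0.53 ± 0.14, so that 3 of the 7 tested receptors and targets were higher and 0 lower. For this and the next lists, the shares over all genes were 1.03% higher and 1.12% lower. Crabp2, with 186, 226 and 271 CPM against 123, 131, 147 and 168 in MULTI-seq 1, was higher by 0.48 ± 0.08 here, beside -0.60 in Mature Somites. Among 11 neural identity genes 3 were higher and 0 lower: Sox2, the neural and progenitor factor (0.49 ± 0.07), and the spinal cord patterning genes Irx3 (0.55 ± 0.08) and Irx5 (0.69 ± 0.15). Igfbp5, which binds insulin-like growth factors, was higher by 0.98 ± 0.13 without overlap in either experiment, and the cell cycle inhibitor Cdkn1c by 0.69 ± 0.14. Atf4 and Mthfd2, of the integrated stress response, were lower (-0.37 ± 0.09 and -0.34 ± 0.09), with 4 of 14 such genes lower and 0 higher. When single gastruloids were left out in 22 fits, Il17rd lost its call in 12, Rara in 9 and Mthfd2 in 2.

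**Figure D5:**
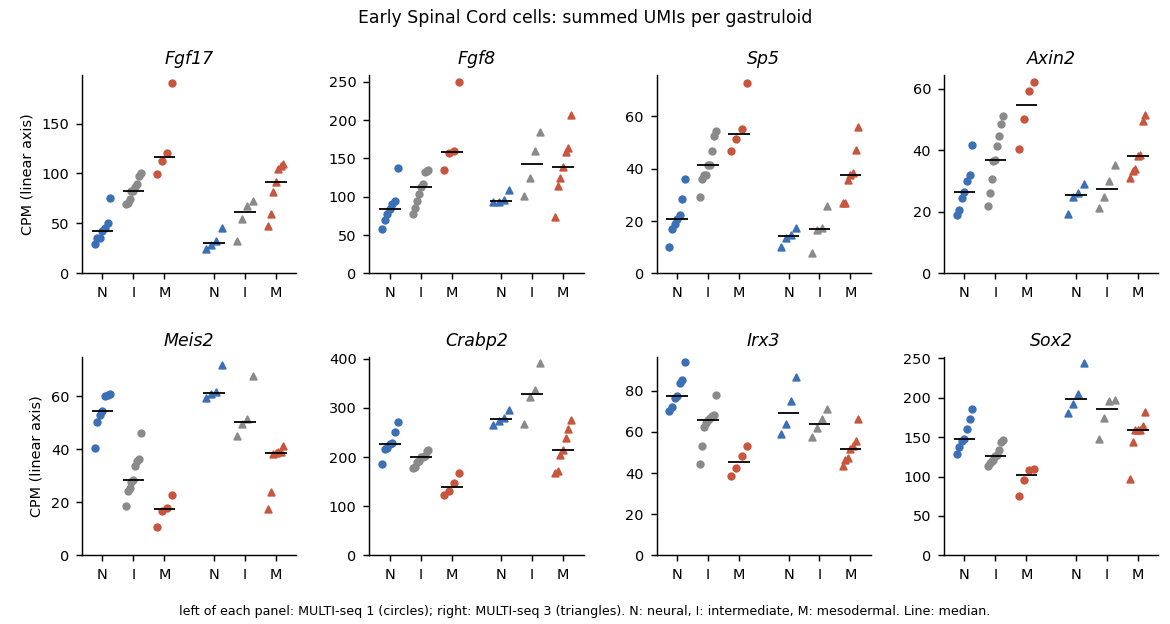
Each point is the CPM of 1 gene in the summed Early Spinal Cord cells of 1 gastruloid, on a linear axis, by class (N neural, I intermediate, M mesodermal) and experiment (circles MULTI-seq 1, triangles MULTI-seq 3); lines are medians. Fgf17 and Sp5 are lower and Meis2 higher in every neural gastruloid than in any mesodermal one of the same experiment, with Fgf17 medians of 42.4 and 116 CPM in MULTI-seq 1.

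The authors' mapping onto embryo cells differed along with these genes. Of the cells named Early Spinal Cord, 32.8% ± 6.83 were mapped to NMPs in neural gastruloids (n = 11), 40.4% ± 4.46 in intermediate (n = 13) and 51.2% ± 9.23 in mesodermal ones (n = 11), a difference of -17.2 percentage points between neural and mesodermal within experiments (permutation test, adjusted p = 0.0002 over 4 shares). The share mapped to spinal cord progenitors was 41.7% ± 7.06, 35.3% ± 4.57 and 29.9% ± 6.74 (difference 10.3 points, adjusted p = 0.00366). The classes were chosen on cell composition, and these shares are cell type shares read from the same RNA. A difference may thus come with the choice of class, and these p-values are no independent evidence. With the NMP-mapped share of each gastruloid as a covariate 14 genes were called in place of 198. Of the 25 genes named for this comparison, Fgf17, Meis2, Sp5 and Ptch1 were among them and 21 were not. Grouping cells by the embryo mapping instead does not separate the spinal cord names, since 1471 of 4097 Early and 1692 of 3756 Late Spinal Cord cells share the mapped name spinal cord progenitors. All cells with that mapped name, summed together, gave 792 called genes, which is no value of Early Spinal Cord alone. The mean embryonic stage of the mapped cells differed by -0.0869 days between neural and mesodermal Early Spinal Cord, with the neural class earlier (adjusted p = 0.00452 over 4 names), and by -0.0727 days in Mature Somites (adjusted p = 0.0264).

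By fold change, intermediate gastruloids lay between the ends for Fgf17, Meis2 and Sp5 in Early Spinal Cord, and near the neural class for Crabp2. Fgf17 was lower in neural than in intermediate gastruloids (-0.80 ± 0.13, edgeR adjusted p = 0.000998) and Meis2 higher by 0.49 ± 0.10 (0.0451), 2 of the 3 genes called there, or 0.0326% of those tested (0.0217% lower, 0.0109% higher). With a lane left out 1 to 16 genes were called, with MULTI-seq 1 alone 49 and with MULTI-seq 3 alone 0. Between intermediate and mesodermal gastruloids 18 genes were called, or 0.196% (0.141% higher, 0.0543% lower), with Meis2 (0.57 ± 0.12) and Crabp2 (0.46 ± 0.07) higher and Sp5 (-0.70 ± 0.14) lower in the intermediate class. The count was 4 and 3 without lane A or lane C of MULTI-seq 3, 1 with at least 50 cells and 0 without the term for experiment.

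Late Spinal Cord, the more mature name, was compared between neural and intermediate gastruloids. The share of its cells that the embryo mapping put in NMPs was 0.0%, 4.76%, 12% and 13.6% in the intermediate gastruloids of MULTI-seq 1 and 1.52%, 8.57%, 10.8% and 15.1% in those of MULTI-seq 3, against 0.794% to 5.22% and 1.41% to 5.48% in neural ones. Its part in the results below was not tested. Of the 9648 genes tested 1.26% were called, with 43 (0.446%) higher and 79 (0.819%) lower in neural gastruloids. This count rested on few gastruloids: it was 22 without 1 intermediate gastruloid of MULTI-seq 3, whose 185 cells made the largest intermediate sum of that experiment and held the 15.1% mapped to NMPs, and 49 and 73 without either of 2 neural ones of MULTI-seq 3. Of 10 FGF feedback genes 5 fell and 0 rose, with a median of -0.65. Etv5, an FGF-induced transcription factor, had 7.87, 12.2 and 16.2 CPM in the neural gastruloids of MULTI-seq 1 and 18.5, 20.5, 28.5 and 35.8 CPM in the 4 intermediate ones. In MULTI-seq 3 the values were 5.55, 6.46, 10.8 and 11.3 CPM against 13.1, 17.3, 17.4 and 23.7. The classes were separate in both (log2 fold change -1.18 ± 0.17, edgeR adjusted p = 0.0004). Etv4 (-1.09 ± 0.19), Dusp6, a phosphatase that damps FGF signalling (-0.98 ± 0.19), and Spry2 (-0.65 ± 0.13) were lower too, as were the ligands Fgf8 (-1.11 ± 0.22) and Fgf17 (-1.65 ± 0.36). Of 10 NMP and tail bud genes 7 were lower and 0 higher (median -0.82), with Cdx2 at -0.95 ± 0.17 and Nkx1-2, a marker of the progenitor zone, at -0.77 ± 0.19. Of these, Dusp6, Spry2, Fgf8, Fgf17 and Nkx1-2 were not called without that 1 intermediate gastruloid (edgeR adjusted p = 0.0512, 0.218, 0.192, 0.215 and 0.343).

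Some Notch and neural identity genes were higher in Late Spinal Cord of neural gastruloids, while most listed members did not pass the test. Dll1, the Notch ligand of cells that become neurons, had 31.7, 40.7 and 50.0 CPM in neural and 7.16, 8.14, 12.3 and 22.0 CPM in intermediate gastruloids of MULTI-seq 1. The values of MULTI-seq 3 were 26.8, 30.2, 33.7 and 41.6 CPM against 15.2, 17.7, 22.3 and 26.1. The classes did not overlap (log2 fold change 0.92 ± 0.14, edgeR adjusted p = 0.000415). Hes5, the Notch target of neural progenitors, was higher by 0.69 ± 0.13 and the ligand Jag1 by 0.45 ± 0.09, while Hes1 was lower (-0.50 ± 0.10), so that 4 of 13 tested Notch genes were higher and 1 lower. For this and the next list, the shares over all genes were 0.446% higher and 0.819% lower. Pax6 (0.65 ± 0.16), Sox1 (0.34 ± 0.09) and the radial glia gene Fabp7 (1.48 ± 0.28) made up the 3 of 14 neural identity genes that were higher, and the neuronal RNA-binding protein Elavl4 was higher by 0.69 ± 0.14. The neuron markers summed to 48.0 to 70.9 CPM in neural and 18.8 to 50.5 CPM in intermediate gastruloids, without overlap in MULTI-seq 1. The NMP markers summed to 408 to 503 CPM in neural and 522 to 710 CPM in intermediate gastruloids of MULTI-seq 1, and in MULTI-seq 3 the endoderm markers to 7.41 to 9.54 and 14.9 to 17.2 CPM and the notochord markers to 4.06 to 4.89 and 6.52 to 10.5 CPM, all without overlap. The 8 spinal cord markers were separate there too, at 1152 to 1320 and 989 to 1112 CPM. Of the 7 endoderm and the 5 notochord markers, 1 each entered the test in this name. The notochord list shares T with the NMP list and Foxa2 with the endoderm list, so these sums are not separate signs of such cells. The part of neighbouring cells in the results was not tested. The intermediate sums were small, with a median of 23.5 cells in MULTI-seq 1, and 3 genes were called in that experiment alone and 13 in MULTI-seq 3 alone, with 0 in both. Of the former 2 of 3 and of the latter 12 of 12 testable ones had the same sign in the other experiment, beside 54.6% of all genes.

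Hox genes in Late Spinal Cord were lower in the neural class where they differed. Of 11 tested genes of groups 1 to 4, 4 were lower, of 14 in groups 5 to 9, 3, and both tested genes of groups 10 to 13, with medians of -0.42, -0.32 and -2.42, beside 0.819% of all genes lower. Hoxa9 had 37.5, 76.0 and 95.2 CPM against 93.9, 127, 142 and 161 in MULTI-seq 1 and 36.4, 51.4, 67.5 and 77.2 CPM against 96.2, 98.9, 104 and 148 in MULTI-seq 3 (log2 fold change -0.94 ± 0.15, edgeR adjusted p = 0.000484). Hoxd9 had 46.5 CPM in 1 intermediate gastruloid of MULTI-seq 3 and 1.87, 2.79 and 4.52 in the other 3, beside 0.863, 1.39, 1.85 and 4.59 in neural ones, and Hoxa10 had 30.3 CPM in 1 and 1.56, 6.70 and 11.05 in the others. The high value of both came from the same gastruloid, the one without which 22 genes were called. Without it Hoxa10 had a log2 fold change of -1.12 (edgeR adjusted p = 0.679), and Hoxd9 no longer passed the filter on low counts. Of the other genes named in Late Spinal Cord, 10 were not called without it, with Dusp6 nearest the threshold (-0.92, edgeR adjusted p = 0.0512) and Pax6 farthest (0.49, 0.353). The 8 others among these were Fgf8, Fgf17, Spry2, Nkx1-2, Jag1, Hes1, Sox1 and Fabp7. Over 20 fits that left out 1 gastruloid each, Nkx1-2 and Sox1 lost their call in 6, Pax6 in 5 and Hoxa10 in 3, neural gastruloids among those left out, and Hoxd9 could be tested in 10. Etv5, Etv4, Cdx2, Dll1, Hes5, Elavl4 and Hoxa9 were called in each of these fits.

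In presomitic mesoderm the sums of neural gastruloids were few and small. Late Posterior PSM of neural gastruloids had 8 genes (0.0943%) higher and 12 (0.141%) lower than that of mesodermal ones, and leaving out single gastruloids gave 8 to 41 called genes. Crabp2 had 125, 141, 149 and 163 CPM in the 4 neural gastruloids of MULTI-seq 1 and 39.0, 66.9 and 131 CPM in the mesodermal ones. In MULTI-seq 3 the 3 neural gastruloids had 119, 159 and 176 CPM and the mesodermal ones 70.8, 89.3 and 117. The ranges met in MULTI-seq 1 and were apart in MULTI-seq 3 (log2 fold change 0.78 ± 0.14, edgeR adjusted p = 0.00303). Aldh1a2, which makes retinoic acid as cells approach the somite, was lower (-1.26 ± 0.30, edgeR adjusted p = 0.0431), beside 0.34 in Mature Somites. The segmentation clock gene Hes7 (-0.35 ± 0.08), the protocadherin Pcdh19, of forming somites (-0.57 ± 0.11), and the gap junction gene Gja1 (-0.51 ± 0.09) were lower. Jund, of the AP-1 family, was higher by 0.78 ± 0.15, Peg3, an imprinted gene, by 0.50 ± 0.10 and the palmitoyl transferase Zdhhc2 by 1.00 ± 0.20. Of these genes Aldh1a2 lost its call in 12 of 22 fits that left out 1 gastruloid each, Hes7 in 8, Peg3 in 2 and Jund in 1. With MULTI-seq 1 alone 50 genes were called and with MULTI-seq 3 alone 0. With the UMIs per cell as a covariate 8 were.

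Between intermediate and mesodermal gastruloids Late Posterior PSM had 147 genes called, or 1.73% (1.2% higher, 0.53% lower). Beside the glycolysis genes, 5 of 11 tested immediate early genes were higher and 0 lower (median 0.52). These genes switch on quickly when cells are stimulated. Jun had 27.3, 35.8 and 39.5 CPM in intermediate and 16.4, 24.1 and 45.9 CPM in mesodermal gastruloids of MULTI-seq 1, and 53.02, 62.8, 68.2 and 102 CPM against 24.8, 36.4 and 72.6 in MULTI-seq 3. The ranges overlapped in both experiments (log2 fold change 0.76 ± 0.13, edgeR adjusted p = 0.000174). Ier3 had 1.68, 8.19, 26.3 and 29.7 CPM in the intermediate gastruloids of MULTI-seq 3 and 0.987, 2.67 and 4.07 CPM in the mesodermal ones, with a log2 fold change of 2.19 ± 0.33. Fos was uneven among the intermediate gastruloids of MULTI-seq 3, at 1.82, 9.22, 42.4 and 44.8 CPM. MULTI-seq 3 carried these calls, with 77 in it alone and 6 in MULTI-seq 1 alone, and 0 in both. Of the former 64 of the 68 testable ones had the same sign in MULTI-seq 1, and of the latter 4 of 6 in MULTI-seq 3, beside 57.7% of all genes. Without lane 1 or lane 2 of MULTI-seq 1 the count was 231 and 222, and without the term for experiment 0 genes were called.

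Late Anterior PSM, the step before the somite, had 85 genes (1.01%) higher and 23 (0.272%) lower in intermediate than in mesodermal gastruloids, or 1.28% in all. Of 15 tested genes of the integrated stress response 4 were higher and 0 lower (median 0.39), among them Nupr1, a stress-induced chromatin protein, at 18.3, 21.6, 23.2 and 25.6 CPM against 0, 4.23 and 10.4 in MULTI-seq 3, where the classes were separate. In MULTI-seq 1 the same gene had 0, 7.78 and 14.2 CPM against 0, 3.08 and 12.4, with overlap (log2 fold change 1.72 ± 0.30, edgeR adjusted p = 0.000321). Ddit4 was higher by 0.93 ± 0.18 and Pfkp by 2.00 ± 0.42. MULTI-seq 3 alone called 104 genes and MULTI-seq 1 alone 6, with 4 in both. Of the former 75 of 97 testable ones and of the latter 6 of 6 had the same sign in the other experiment, beside 54.1% of all genes. Without lane A of MULTI-seq 3 the count was 25, without lane 3 of MULTI-seq 1 it was 59, and without the term for experiment 1 gene was called.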

How the data were processed

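Single-cell RNA-seq counts of 6 lanes were used, 3 per experiment. Per the file headers the deposited matrices hold UMI counts made with Cell Ranger 6.0.0, and the submitters' processing notes also name Seurat and mm10. Day, gastruloid, class, cluster name and embryo mapping of each cell were taken from the authors' deposited cell table, whose mean mapped stage was used as an embryonic day. Cells called negative or doublet were not used. The other deposited lanes were not used here.

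The gastruloid was the replicate. Its UMI counts were summed over lanes within each cluster name (20 or more cells), and a class pair was tested where both classes had at least 6 gastruloids in all and 2 in each experiment. The test was edgeR 4.0.16 (R 4.3.3), glmQLFit and glmQLFTest, on class and experiment with all 3 classes in 1 fit, TMM normalisation and filterByExpr, with Benjamini-Hochberg adjustment over all genes of a fit. The SE is the log2 fold change divided by the root of F. Depth, mapped shares and stage were compared by two-sided permutation tests within experiments with 100000 resamples (smallest p 1e-05). The fit was checked on simulated counts.

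The genes that may be named are, for neural against mesodermal gastruloids, up to 10 per direction and cluster name with the lowest p among called genes whose experiments share a sign, and in any comparison the called members of 36 lists, from which those described were picked by role. The members, the classes and the lists were chosen with earlier results of these data known. Alternatives were DESeq2 1.42.0, RLE size factors, no filter, at least 50 cells, embryo-mapped names, each experiment alone, no experiment term, a lane left out, adjustment over all names together, and, added after seeing the data, covariates and leaving out single gastruloids.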

Additional observations from a re-analysis of the deposited data

Results flagged for a closer look

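Single gastruloids stood apart from the others of their class and experiment, by the gap to the nearest other value against the range of the group, in 23 of the 492 groups tested, where chance gives about 1 in 20. In mesodermal Mature Somites of MULTI-seq 3 the lowest mean mapped stage was 8.5632 days, with 8.6824 next. Among levels in the same cluster name, mesodermal gastruloids of MULTI-seq 3 had a lowest Bnip3 value of 29.95 CPM (46.14 next) and highest values of 7.995 CPM for Ndufa4l2 (2.043 next) and 53.73 CPM for Pax1 (26.37 next). Mesodermal gastruloids of MULTI-seq 1 had a highest Pax1 of 90.94 CPM (31.46 next) and a highest Pgk1 of 1080 CPM (959.1 next). In neural Mature Somites, Crabp1 reached 640.4 CPM in 1 gastruloid of MULTI-seq 1 (258.7 next), and in MULTI-seq 3 Id2 reached 70.93 CPM (17.91 next) and Nbl1 fell to 7.881 CPM in 1 gastruloid (20.79 next). Sox9 reached 92.06 CPM in 1 intermediate gastruloid of MULTI-seq 1 (47.85 next).

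In Early Spinal Cord of MULTI-seq 3, Meis1 reached 14.8 CPM in 1 neural gastruloid (6.906 next) and T 37.33 CPM in 1 mesodermal one (23.82 next). In Late Posterior PSM of MULTI-seq 1, Aldh1a2 reached 53.49 CPM in 1 neural gastruloid (31.57 next), and Fos 11.56 CPM (2.336 next) and Ier3 12.16 CPM (4.825 next) in 1 mesodermal gastruloid each. Late Anterior PSM of MULTI-seq 1 had a highest Nupr1 of 12.37 CPM in the mesodermal class (4.215 next) and a highest Pfkp of 25.08 CPM in the intermediate class (7.775 next). In Late Spinal Cord, 1 intermediate gastruloid of MULTI-seq 3 had 46.49 CPM of Hoxd9 (4.52 next) and 1 had 147.6 CPM of Hoxa9 (104 next). In MULTI-seq 1 the highest intermediate values were 30.13 CPM for Fabp7 (8.209 next) and 42.88 CPM for Pax6 (7.159 next), and the highest neural values 23.41 CPM for Hoxa10 (11.06 next) and 17.02 CPM for Hoxd9 (8.046 next).

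Differences between classes that themselves differed between the experiments, by edgeR's test of the interaction with an adjusted p under 0.05, were found for 14 pairs of gene and comparison and are given as the log2 fold change in MULTI-seq 3 minus that in MULTI-seq 1. In Late Posterior PSM between neural and mesodermal gastruloids they were 0.494 for Nme2 (edgeR adjusted p = 0.00612), -0.466 for Malat1, 0.33 for Npm1 and 0.572 for Uqcrq. Between neural and intermediate ones they were 0.469 for Nme2, -0.487 for Malat1, 0.575 for Uqcrq and 5.534 for Nnat, an imprinted gene at mean levels of 17.6 CPM in neural and 60.0 CPM in intermediate gastruloids of MULTI-seq 1 and 23.3 and 2.64 CPM in MULTI-seq 3. Nnat in NMPs gave 4.037 in the same comparison (edgeR adjusted p = 0.0147), beside 2.461 for Lrba and -0.606 for Ldha. Ldha, of the glycolysis and hypoxia list, had 0.024 in MULTI-seq 1 and -0.584 in MULTI-seq 3. In Mature Somites between neural and intermediate gastruloids, Taldo1, an enzyme of the pentose phosphate pathway, gave 0.59. Ero1l, an oxidase of protein folding and a member of the glycolysis and hypoxia list, gave -1.216 (edgeR adjusted p = 0.0263). It had 1.237 in MULTI-seq 1 and 0.017 in MULTI-seq 3. The mitochondrial transcript mt-Co1 gave 0.392 between intermediate and mesodermal Late Anterior PSM.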

How the results depend on the processing

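No paired analysis was possible because replicate numbers in the labels are lanes, which split the same pool of gastruloids and pair nothing across classes. Counts of called genes are given below where they moved by more than 1.5 times, in the order neural against mesodermal, neural against intermediate and intermediate against mesodermal, and the cause was not tested. With the deposited counts as reported above they were 198, 3 and 18 in Early Spinal Cord, 122 (the comparison of neural with intermediate) in Late Spinal Cord, 0, 0 and 1 in NMPs, 20, 0 and 147 in Late Posterior PSM, 108 (intermediate with mesodermal) in Late Anterior PSM and 1449, 539 and 23 in Mature Somites. Of 121 named values, none changed sign in the alternatives that gave it a value, and all kept their call with RLE size factors and with no filter on low counts. The choice of genes set this in part. All were called in the main fit, and those named by lowest p had to share a sign in both experiments. Calls were lost for 57 of 121 without the term for experiment, 10 of 107 with DESeq2, 49 of 114 with MULTI-seq 1 alone, 58 of 120 with MULTI-seq 3 alone, 8 of 62 with embryo-mapped names, 11 of 41 with at least 50 cells and 25 of 69 with the mapped share.

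With no filter on low counts the counts were 320, 125 and 144 in Early Spinal Cord, 350 in Late Spinal Cord, 43, 16 and 65 in NMPs, 115, 47 and 223 in Late Posterior PSM, 170 in Late Anterior PSM and 136 between intermediate and mesodermal Mature Somites. Adjusting p over all cluster names together gave 34 and 31 for the comparisons of intermediate Early Spinal Cord, 48, 7 and 23 in NMPs, 105, 14 and 95 in Late Posterior PSM, and 319 and 36 for those of intermediate Mature Somites. Without the term for experiment they were 67, 1 and 0 in Early Spinal Cord, 19 in Late Spinal Cord, 0 between intermediate and mesodermal NMPs, 4 and 0 for the mesodermal comparisons of Late Posterior PSM, 1 in Late Anterior PSM and 612, 194 and 0 in Mature Somites. With at least 50 cells per sum, neural against mesodermal Early Spinal Cord had 122, and intermediate against mesodermal gastruloids had 1 in Early Spinal Cord, 0 in NMPs and 370 in Late Posterior PSM.

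MULTI-seq 1 alone gave 74, 49 and 2 in Early Spinal Cord, 3 in Late Spinal Cord, 1 and 0 for the mesodermal comparisons of NMPs, 50, 12 and 6 in Late Posterior PSM, 6 in Late Anterior PSM and 358, 222 and 0 in Mature Somites. MULTI-seq 3 alone gave 27 and 0 for the neural comparisons of Early Spinal Cord, 13 in Late Spinal Cord, 2 and 9 for the intermediate comparisons of NMPs, 0 and 77 for the mesodermal comparisons of Late Posterior PSM, and 55 and 6 for the intermediate comparisons of Mature Somites. Grouping all cells by the embryo mapping gave 792, 480 and 70 among spinal cord progenitors, a single set that stands in for Early and for Late Spinal Cord alike and is no value of either name. It gave 165, 4 and 25 among cells mapped to NMPs and 12 between intermediate and mesodermal cells mapped to Sclerotome, set beside Mature Somites. DESeq2 gave 6 and 44 for the intermediate comparisons of Early Spinal Cord, 85 between neural and mesodermal Late Posterior PSM and 5 between intermediate and mesodermal Mature Somites. Chosen after seeing the data, the mapped share as a covariate gave 14 between neural and mesodermal Early Spinal Cord. That share was read from the same RNA and went with class. The UMIs per cell gave 3 in NMPs and 8 in Late Posterior PSM.

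Leaving out each lane in turn gave 124 to 180, 1 to 16 and 3 to 22 in Early Spinal Cord, 73 to 110 in Late Spinal Cord, 0 to 3, 0 to 0 and 0 to 9 in NMPs, 109 to 231 between intermediate and mesodermal Late Posterior PSM, 25 to 160 in Late Anterior PSM and 1071 to 1214, 328 to 465 and 12 to 43 in Mature Somites. Beside the lanes named in the results, Early Spinal Cord had 128, 129 and 124 between neural and mesodermal gastruloids without lane 2 of MULTI-seq 1 and lanes A and C of MULTI-seq 3, and 1, 16, 6 and 8 between neural and intermediate ones without lane 2 and lanes A, B and C. Late Spinal Cord had 73 without lane A. Mature Somites had 340 and 328 between neural and intermediate gastruloids without lanes 2 and 3, and 43, 12 and 15 between intermediate and mesodermal ones without lanes 3, A and C. Neural gastruloids were too few for a value in Late Posterior PSM with a lane left out, in Late Spinal Cord and NMPs without either of 2 lanes of MULTI-seq 1, in Mature Somites and Late Posterior PSM under the embryo mapping, and, with at least 50 cells, in Mature Somites, Late Posterior PSM, Late Spinal Cord and NMPs. Late Anterior PSM had no value with at least 50 cells. Leaving out each gastruloid, added after seeing the data, gave 148 to 233 in Early Spinal Cord, 8 to 41 in Late Posterior PSM and 1085 to 1500 in Mature Somites for neural against mesodermal gastruloids, and 22 to 158 in Late Spinal Cord.

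Depth and stage moved too. In MULTI-seq 1 alone neural minus mesodermal gastruloids differed by -4.62 cells and -83.5 UMIs per median cell, neural minus intermediate ones by -147 UMIs, intermediate minus mesodermal ones by -0.124 percentage points of mitochondrial RNA, and the stage of Mature Somites by -0.0425 days. In MULTI-seq 3 alone neural minus mesodermal gastruloids differed by 2368 UMIs and -0.134 points of mitochondrial RNA, neural minus intermediate ones by -0.0484 points, and stage by -0.0611 days in Early Spinal Cord, -0.007 in NMPs, -0.0343 in Late Posterior PSM and -0.109 in Mature Somites. With each lane left out, neural minus mesodermal gastruloids differed by 741 to 1100.3 UMIs, -0.0007 to 0.038 points of mitochondrial RNA, -0.0913 to -0.0512 days of stage in Mature Somites and 0.0253 to 0.053 days in NMPs. The same lanes gave 0.131 to 0.175 points of mitochondrial RNA for neural minus intermediate gastruloids, and 129 to 171 cells, -51.9 to 381 UMIs and -0.114 to -0.0908 points for intermediate minus mesodermal ones. The median neural sum held 25 cells in Late Posterior PSM and 34.5 in NMPs, which limits the low genes that could be tested there.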
